A study of Mus musculus with 6 samples.

Results

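The cytosolic ribosomal protein genes were taken by name from the table of 14549 genes: symbols of the Rpl and Rps series with a number, the stalk genes Rplp0, Rplp1 and Rplp2, and Rpsa, without names ending in -ps and without the Rps6k kinases. The rule found 83 genes, 48 of the large and 35 of the small ribosomal subunit, and all 83 were tested. In the GENCODE M21 annotation 80 of them are protein-coding and 3 (Rps12l1, Rps3a2 and Rps4l) carry a pseudogene biotype. The study sequenced polyadenylated RNA of epicardium and subepicardium dissected from mouse hearts at E16.5, a late stage of gestation. It asked how loss of Meis1 and Meis2, which encode homeodomain transcription factors, changes expression there. In the 3 dKO pools both genes were floxed on both alleles (Meis1fl/fl;Meis2fl/fl) and recombined by WT1-Cre, which acts in cells that use or have used the Wt1 gene, so other cells of the layer keep both genes. The 3 control pools were labelled wild-type, and the sources used here do not say if these embryos carried floxed alleles or the Cre. Tissue of 2 hearts was pooled for each library, so p-values measure the spread between pools. All values are reads per 1e6 of a scaled library size, written below as normalised reads, and a library's values need not sum to 1e6.

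Ribosomal proteins form the small subunit, which reads the mRNA, and the large subunit, which joins the amino acids. Their mRNAs are among the most abundant of most cells, and many start with a run of pyrimidines that couples their translation to growth signalling through mTOR. Mammalian genomes carry many processed copies of these genes, so that short reads often fit more than 1 place.

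Recovered read totals over the table ran from 13146322 to 20635676 per library. Meis2 averaged 41.3 normalised reads in dKO pools and 78.3 in control pools and passed the test (limma adjusted p = 0.0035), whereas Meis1, at 65.9 in dKO pools and 77.8 in control pools, did not (limma adjusted p = 0.521). Counts over all exons do not measure the floxed part. All 17 epicardial and mesothelial markers were detected in the controls, and the groups differed in cell type markers. Epicardial and mesothelial markers were lower in dKO pools for 16 of 17, with a summed level of 564 to 697 in dKO pools and 2932 to 4336 in control pools. Cardiomyocyte markers were higher for 20 of 22, with sums of 37874 to 40847 in dKO pools and 7271 to 15982 in control pools. Fibroblast markers were lower for 11 of 13, lymphatic endothelial markers for 6 of 7 and macrophage and mast cell markers for 5 of 10. Mural markers were higher for 7 of 10, endothelial markers lower for 1 of 11, and of 10 erythroid markers 0 passed by limma or edgeR (1 at an unadjusted p under 0.05). No marker of these lists was at 0 reads in every pool of a group. Mitochondrially encoded transcripts made up 19.9%, 11.3% and 12.4% of all reads in dKO 1, 2 and 3 and 5.99%, 8.80% and 10.4% in control 1, 2 and 4. The part of these shifts in the ribosomal protein values was not tested, and in such bulk samples fewer cells of a type and less RNA per cell cannot be told apart.

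Ribosomal protein mRNAs were mostly lower in the dKO pools, by modest amounts. Of the 83 genes, 13 (15.7%) fell and 0 rose (limma, Benjamini-Hochberg adjusted over all genes, threshold 0.05). Over all 14549 genes 12.2% fell and 9.81% rose, so the share of ribosomal protein genes that fell was near that background. The sign was more one-sided than the calls. The log2 change was negative for 70 of 83 members, against 49.8% of all genes. Its median was -0.31 for the members (quartiles -0.43 and -0.07, range -0.83 to 0.97) and 0.00 for all genes. The pools of the groups did not overlap for 38 members that were lower and 2 that were higher (Rps7 and Rps4l), where 21.1% and 19.3% of all genes did so. At an unadjusted p under 0.05, 36 members were lower and 3 higher, with 18.3% and 16.8% of all genes. On the recovered reads, edgeR called 10 lower and 0 higher, with 11.4% and 8.96% of all genes. DESeq2 called 25 lower and 2 higher, with 13.8% and 11.1% of all genes. The count of calls rested on single pools: it was 1 lower without control 2, 1 lower without dKO 2 and 3 lower without dKO 3, where 8.89%, 9.23% and 8.90% of all genes were lower.

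**Figure D1:**
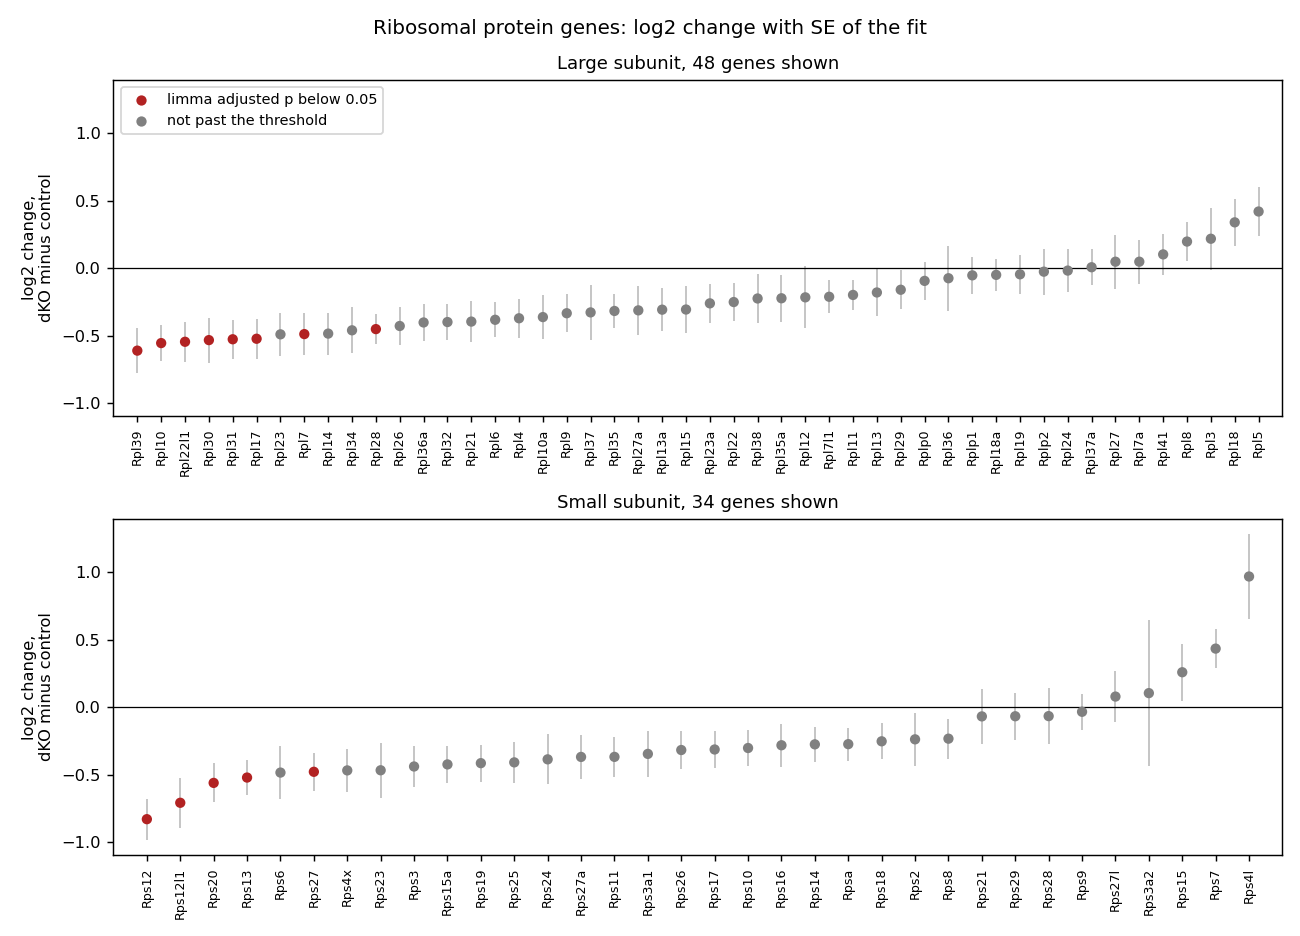
Log2 change (dKO minus control) of 82 of the 83 ribosomal protein genes with the standard error of the limma fit, large subunit above and small subunit below, ordered by change. The 13 red points passed the adjusted threshold of 0.05, all of them below 0; Rps4l has the highest change, at 0.97.

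The subunits had similar medians. In the large subunit 8 of 48 genes fell, 40 were negative and the median was -0.28. In the small subunit 5 of 35 fell, 30 were negative and the median was -0.31. The summed members took 2.23%, 2.08% and 2.30% of the signal in dKO 1, 2 and 3, against 3.03%, 3.26% and 2.68% in control 1, 2 and 4, so the groups did not overlap. With the mitochondrially encoded genes left out of the total the shares were 2.78%, 2.35% and 2.62% in the dKO pools and 3.22%, 3.57% and 2.99% in the control pools, again without overlap. Pools within a group differed too. The median deviation of the members from the control mean was -0.10, -0.48 and -0.28 in dKO 1, 2 and 3 and -0.06, 0.15 and -0.09 in control 1, 2 and 4. By this measure dKO 1 lay just below the lowest control pool, and dKO 2 lay lowest of the 6. By the mean log2 value of the members the groups overlapped. That mean was 7.65, 7.27 and 7.44 in dKO 1, 2 and 3 and 7.62, 7.84 and 7.62 in control 1, 2 and 4.

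**Figure D2:**
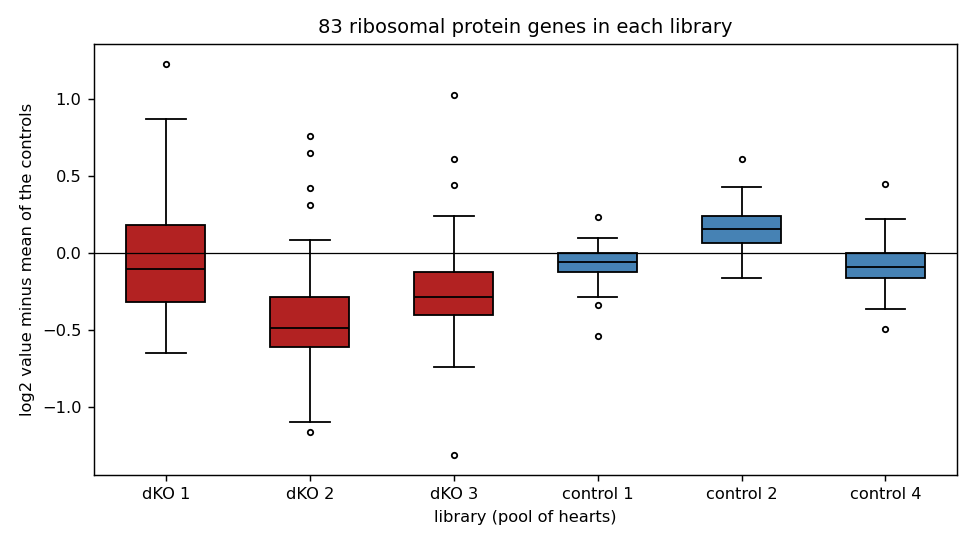
Log2 value of each of the 83 genes minus its mean over the controls (vertical axis), by library, with dKO pools in red and control pools in blue. Boxes span the quartiles, lines mark medians, whiskers reach 1.5 box lengths and circles are genes beyond them; the medians run from -0.48 in dKO 2 to 0.15 in control 2.

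By own row, the largest fall in the small subunit was that of Rps12 (GRCm38 chr10:23785183-23787275, minus strand), a component of the subunit's beak. It had 39.2, 28.5 and 36.8 normalised reads in the dKO pools, against 59.8, 66.7 and 59.97 in the control pools. All dKO pools lay below all controls (log2 change -0.83, SE 0.15, limma adjusted p = 0.0036). Rps12l1, whose coding part is identical to that of Rps12 over 399 bases, had 126, 74.8 and 115 in the dKO pools, against 157, 185 and 164 in the control pools (log2 change -0.71, SE 0.18, limma adjusted p = 0.021). The copy Rps12-ps3, also identical over 399 bases, had 111, 91.2 and 68.6 in the dKO pools, against 90.4, 130 and 87.3 in the control pools. Its groups overlapped (log2 change -0.19, limma adjusted p = 0.557). Reads of the shared part cannot be told apart among these rows. The Rps12 row held 17.2% of their sum. That sum had a log2 change of -0.54 (SE 0.15, limma adjusted p = 0.031), against -0.60 for Rps20 summed with its copy. All exonic bases of Rps12l1 (100%) also lie within exons of other annotated genes, so without strand information its reads may belong to those.

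Rps20, of the subunit's head, had 189, 158 and 169.5 normalised reads in dKO pools, against 249.7, 303 and 216 in control pools (log2 change -0.56, SE 0.14, limma adjusted p = 0.020). Rps13 had 112, 104 and 101 in dKO pools, against 141, 177 and 141 in control pools (log2 change -0.52, SE 0.13, limma adjusted p = 0.016). Rps27, a zinc-binding protein, had 356, 289 and 348 in dKO pools, against 458, 517 and 409 in control pools (log2 change -0.48, SE 0.14, limma adjusted p = 0.034). In these 3 genes the groups did not overlap, and control 2 was the highest pool each time.

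In the large subunit, Rpl39, a very short protein in the wall of the tunnel through which the growing chain leaves, had 351, 293 and 329 normalised reads in dKO pools, against 482, 619 and 405 in control pools (log2 change -0.61, SE 0.16, limma adjusted p = 0.024). Rpl31, at the tunnel rim, had 323, 337 and 308 in dKO pools, against 467, 551 and 392 in control pools (log2 change -0.53, SE 0.14, limma adjusted p = 0.026). Rpl17, also at the exit, had 539, 446 and 563 in dKO pools, against 709, 834 and 679 in control pools (log2 change -0.52, SE 0.15, limma adjusted p = 0.029). None of the 3 overlapped between the groups. Other members at the tunnel or its exit did not pass by row. Rpl26 lay next to the threshold, with a log2 change of -0.43 (limma adjusted p = 0.051). The log2 change was -0.37 for Rpl4, -0.32 for Rpl35, -0.26 for Rpl23a and -0.05 for Rpl19.

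Rpl10, which is added late in assembly and is needed for the subunits to join, had 541, 534 and 603 normalised reads in dKO pools, against 836, 884 and 748 in control pools. The dKO pools were all below the controls (log2 change -0.55, SE 0.13, limma adjusted p = 0.015). Rpl30 had 348, 226 and 257 in dKO pools, against 382, 437 and 368 in control pools (log2 change -0.53, SE 0.17, limma adjusted p = 0.044). Rpl7 had 870.45, 757 and 832 in dKO pools, against 1184, 1294 and 987 in control pools (log2 change -0.49, SE 0.16, limma adjusted p = 0.049). Rpl28 differed less, with 117, 104 and 112 in dKO pools, against 154, 159 and 142 in control pools (log2 change -0.45, SE 0.11, limma adjusted p = 0.018). The log2 changes of Rpl30 and Rpl7 were close to the threshold and passed under 13 of 23 alternatives each, whereas that of Rps12 passed under 22 of 23.

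The members of the highest mean value did not pass. Rps4x, the X-linked Rps4, had 1209.7, 1061 and 1166 normalised reads in dKO pools, against 1687, 1638 and 1430.4 in control pools (log2 change -0.47, SE 0.16, limma adjusted p = 0.058). Its groups did not overlap, and it passed under 6 of 23 alternatives. Rps3a1 had 1272, 1024 and 1116 in dKO pools, against 1504, 1591 and 1245 in control pools, which overlapped (log2 change -0.34, limma adjusted p = 0.175). Rpl4 had 1019, 974 and 997 in dKO pools, against 1289, 1391 and 1194 in control pools, with no overlap (log2 change -0.37, limma adjusted p = 0.096). The stalk genes, whose proteins recruit the elongation factors, were near 0: the log2 change was -0.09 for Rplp0, -0.05 for Rplp1 and -0.03 for Rplp2. Rpsa, a small subunit protein also described as a laminin receptor, had a log2 change of -0.27 (limma adjusted p = 0.139).

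Several members have a paralog that can take the same place in the ribosome. Rpl22l1 fell, with 181, 129 and 153 normalised reads in dKO pools, against 227, 249 and 197 in control pools (log2 change -0.54, SE 0.15, limma adjusted p = 0.026). Rpl22 had 296, 241 and 272 in dKO pools, against 327, 359.8 and 278 in control pools, which overlapped (log2 change -0.25, SE 0.14, limma adjusted p = 0.227). Both values were negative, and the difference between the paralogs was not tested. Rpl7l1, a relative of Rpl7, had a log2 change of -0.21 (SE 0.12, limma adjusted p = 0.249).

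Rps27l, known as a target of p53, did not share the sign of Rps27; the difference between the paralogs was not tested. It had 110.2, 76.1 and 90.8 normalised reads in dKO pools, against 68.3, 109 and 86.1 in control pools. The groups overlapped (log2 change 0.08, SE 0.19, limma adjusted p = 0.802), and the sign turned under 6 of the alternatives listed in the closing section. The coding sequences of the pair have 255 bases each and differ at 61, which leaves 76.1% identical. Their first 60 coding bases (GRCm38, chromosomes 3 and 9) show differences spread along the sequence, in capitals:
Rps27: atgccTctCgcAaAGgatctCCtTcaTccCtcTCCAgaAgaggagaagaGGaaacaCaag
Rps27l: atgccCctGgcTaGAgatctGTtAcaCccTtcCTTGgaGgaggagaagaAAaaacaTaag

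Rps4l, a relative of Rps4x annotated as a transcribed processed pseudogene, had the highest log2 change. It had 8.42, 5.29 and 7.19 normalised reads in dKO pools, against 1.76, 3.29 and 4.48 in control pools. The groups did not overlap, but the levels are low and the adjusted p was just above the threshold (log2 change 0.97, SE 0.31, limma adjusted p = 0.051, and 0.031 to 0.223 over 20 alternatives). Rps3a2, the other low member, had 7.62, 6.99 and 0.901 in dKO pools, against 2.87, 6.22 and 2.76 in control pools, which overlapped.

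The values of many members depend on how reads were divided among copies. Of the 83 members, 70 share more than 50% of their 50-base coding words with some other annotated gene. In the table, 51 other rows hold at least 50% of the words of 42 members; 43 of these rows are annotated as pseudogenes, and 2 (Rps12l1 and Rps3a2) are members themselves. A row under 50%, such as Rpl39-ps with 47.7% of the words of Rpl39, was not counted as a copy or added to its gene. For 13 members the gene's own row held under 50% of the sum of gene and copies. The 4 pairs printed here show how close such copies are. In each pair the first 60 coding bases are given for the gene and then for the copy, with differing bases in capitals.
Rps7: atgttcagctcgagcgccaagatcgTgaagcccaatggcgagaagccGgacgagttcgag
Gm6472: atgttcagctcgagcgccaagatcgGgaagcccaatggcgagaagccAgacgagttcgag
Rpl3: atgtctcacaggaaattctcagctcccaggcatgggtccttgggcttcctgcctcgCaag
Rpl3-ps1: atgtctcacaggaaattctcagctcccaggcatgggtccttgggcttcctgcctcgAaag
Rpl5: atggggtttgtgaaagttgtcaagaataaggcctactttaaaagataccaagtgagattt
Gm15500: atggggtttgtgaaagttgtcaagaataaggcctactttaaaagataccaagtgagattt
Rpl12: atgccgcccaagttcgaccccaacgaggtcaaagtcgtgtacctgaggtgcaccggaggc
Gm10275: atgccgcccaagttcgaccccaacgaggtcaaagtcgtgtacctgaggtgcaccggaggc

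Over the whole coding sequence Gm6472 (GRCm38 chrX:152909505-152910155, minus strand) differs from Rps7 (chr12:28630854-28635953, minus strand) at 3 of 585 bases. Rpl3-ps1 (chrX:13202571-13203780, plus strand) differs from Rpl3 (chr15:80077791-80091868, minus strand) at 2 of the 1209 bases compared. Gm15500 (chr7:114705217-114706235, minus strand) is identical to Rpl5 (chr5:107900502-107909005, plus strand) over all 894 coding bases. Gm10275 (chr10:29698746-29699380, minus strand) is identical to Rpl12 (chr2:32961559-32965345, plus strand) over all 498. A read inside an identical stretch therefore carries no information on its source.

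Rpl5 and Rps7 were the members of highest log2 change after Rps4l, and their copies went the other way. Rpl5, which with Rpl11 and the 5S RNA forms the particle that can bind Mdm2, had 50.9, 38.7 and 36.8 normalised reads in dKO pools, against 26.2, 37.4 and 30.2 in control pools (log2 change 0.42, SE 0.18, limma adjusted p = 0.127). Its copy Gm15500 held far more, with 993, 905 and 959 in dKO pools, against 1291, 1458 and 1177 in control pools (log2 change -0.45, SE 0.15, limma adjusted p = 0.056). The sum of both rows was 1044, 944 and 996 in dKO pools, against 1318, 1496 and 1207 in control pools. The sum did not overlap between groups and turned the sign (log2 change -0.43, SE 0.15, limma adjusted p = 0.072). Leaving out 1 pool at a time, the log2 change of the sum ran from -0.50 to -0.34 and its limma adjusted p from 0.078 to 0.202.

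Rps7, of the small subunit body, had 156, 174 and 198 normalised reads in dKO pools, against 109, 135 and 147 in control pools, with no overlap (log2 change 0.43, SE 0.15, limma adjusted p = 0.058). Gm6472 had 428, 324 and 381 in dKO pools, against 607, 734 and 547 in control pools (log2 change -0.73, SE 0.16, limma adjusted p = 0.0083). The sum was 584, 498 and 579 in dKO pools, against 716, 869.5 and 694 in control pools, and was lower (log2 change -0.45, SE 0.14, limma adjusted p = 0.048). Leaving out 1 pool at a time, the log2 change of the sum ran from -0.51 to -0.35, and it passed only without control 1 (limma adjusted p 0.044 to 0.173). Rps7 thus lay on opposite sides by its own row and by the sum.

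Rpl3, near the catalytic centre of the large subunit, had 643, 439 and 671 normalised reads in dKO pools, against 582, 589 and 351 in control pools. Rpl3-ps1 had 73.8, 189 and 27.4 in dKO pools, against 217, 234 and 376 in control pools. Within each group the pool with the least Rpl3 had the most Rpl3-ps1. The sum was steadier, at 716, 628 and 698 in dKO pools, against 798, 822 and 726 in control pools, with no overlap (log2 change -0.20, SE 0.13, against 0.22 and 0.23 for the Rpl3 row; neither passed the test). Rpl12 itself had 35.03, 18.8 and 29.5 in dKO pools, against 26.2, 36.6 and 32.3 in control pools, and with Gm10275 added it was lower (log2 change -0.50, SE 0.15, limma adjusted p = 0.041). Leaving out 1 pool at a time, the limma adjusted p of that sum ran from 0.032 to 0.156, and it passed in the fits that leave out control 1, control 4 or dKO 1.

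**Figure D3:**
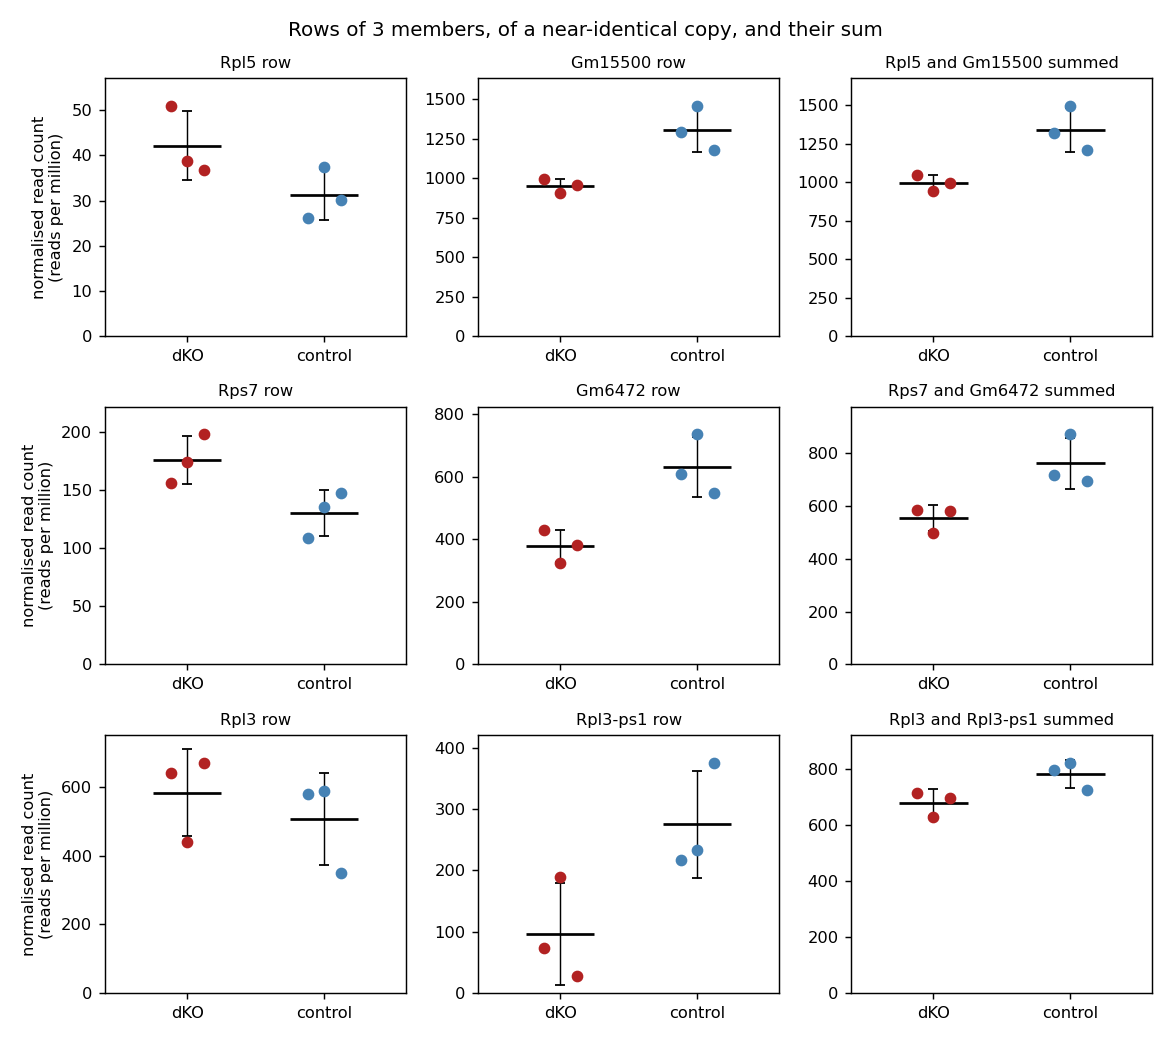
Normalised read count (reads per 1e6) in each dKO pool (left, red) and control pool (right, blue) for the own row of Rpl5, Rps7 and Rpl3, for the row of a near-identical copy, and for their sum; lines are means and bars SD over 3 pools. The Rpl5 and Rps7 rows have the higher mean in dKO pools, and each of the 3 sums is lower in every dKO pool than in every control pool.

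With every copy added to its gene, 81 sums remained in place of 83 rows. Of these 15 fell and 1 rose (Rps4l, which has no copy and lay next to the threshold in both fits; limma adjusted p = 0.0498), with 12.3% of 14498 genes lower and 9.93% higher in that fit. The log2 change was negative for 71 of 81 and its median was -0.29. Spread among the members was smaller: the SD of the 42 genes with copies was 0.16 for sums and 0.26 for their own rows. The sign turned for 6 genes, negative for Rpl5, Rps7, Rpl3 and Rpl27 and positive, close to 0, for Rpl36 and Rplp2. The row added to Rplp2 was Wdr89, annotated as protein-coding, which holds 66.6% of the words of Rplp2. It averaged 7.37 normalised reads in dKO pools and 5.58 in control pools, and these may be reads of Wdr89 itself. The same limit holds for BC004004, a protein-coding row added to Rpl21, and for Gm28037, a processed transcript added to Rpl24. Calls were gained for Rpl12, Rpl14, Rpl23, Rpl26 and Rps7. Rpl26 has no copy among the rows summed and the same log2 change of -0.43 in both fits, and its limma adjusted p was 0.051 by row and 0.049 in the fit of the sums; Rpl14 and Rpl23 also lay next to the threshold by row (limma adjusted p = 0.050 and 0.051). Calls were lost for Rpl28, with a log2 change of -0.31 for the sum and -0.45 for the row, and for Rpl30, with -0.26 for the sum and -0.53 for the row. The Rpl30 copy Gm12191 ran from 0.0319 to 95.6 between pools. The count again rested on single pools, since it was 1 lower without control 2, 0 lower without dKO 2 and 0 lower without dKO 3 (limma), where 8.99%, 9.38% and 9.03% of all genes were lower. At an unadjusted p under 0.05, 20, 13 and 22 sums were lower in these fits, with 15.8%, 16.2% and 16.0% of all genes.

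Levels of different genes were compared per kb of coding sequence, over the 80 protein-coding members. Reads over whole transcripts were divided by coding length only, so genes with a short coding sequence can come out high. Rpl41 (78 bases) and Rpl39 (156 bases), the highest below, have the shortest coding sequences of the 80. By own row the level spanned 25.4 (Rpl36) to 3116 (Rpl41) normalised reads per kb in dKO pools, with a median of 480.3, and 26.5 (Rpl36) to 3216 (Rpl39) in control pools, with a median of 593. Most of these proteins are present in equal numbers in a ribosome, but their mRNA rows covered a wide range, with an SD of 0.42 in dKO pools and 0.46 in control pools on the log10 scale. With copies summed the SD was 0.35 in dKO pools and 0.38 in control pools, and the median was 644 in dKO pools and 785 in control pools. Rpl36 remained lowest by the sum, at 30.8 in dKO pools and 30.1 in control pools.

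**Figure D4:**
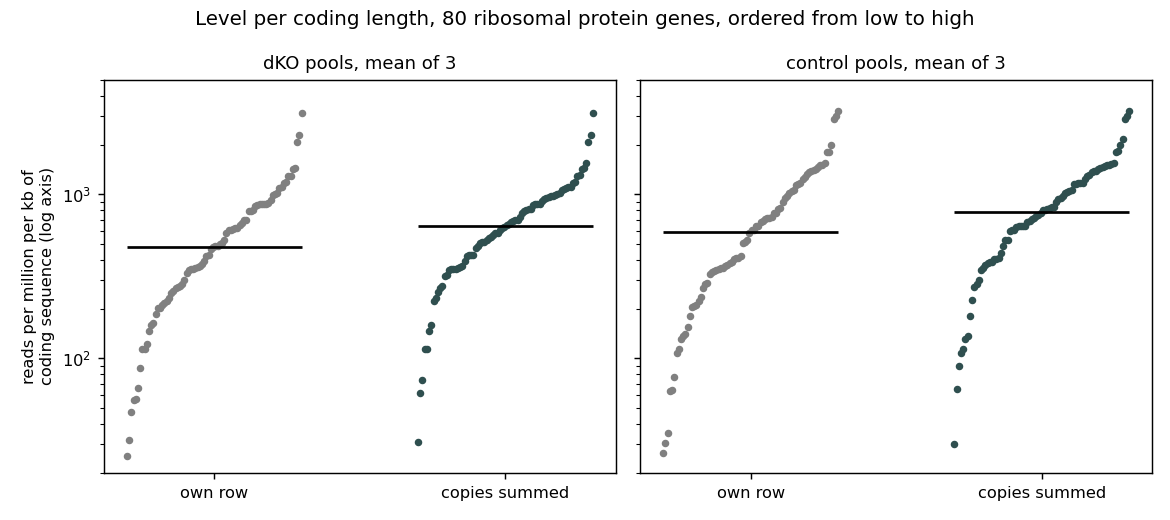
Level per kb of coding sequence (normalised reads per kb, log axis) of 80 ribosomal protein genes, mean of 3 dKO pools (left) and of 3 control pools (right), by own row and with copies summed; genes are ordered from low to high and lines mark medians. Summing lifts the low end, and the median of the sums is 644 in dKO and 785 in control pools.

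Among the members, the size of the log2 change went with the base composition of the coding sequence. GC content ran from 39.6% (Rpl22l1) to 61.3% (Rpl36). Rpl22l1 and Rpl39 are at the low end of this range, and Rpl18 and Rpl36 at the high end. Their first 60 coding bases are shown for contrast with G and C in capitals, which number 30, 24, 34 and 36.
Rpl22l1: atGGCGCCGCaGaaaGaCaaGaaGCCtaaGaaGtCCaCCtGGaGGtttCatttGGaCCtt
Rpl39: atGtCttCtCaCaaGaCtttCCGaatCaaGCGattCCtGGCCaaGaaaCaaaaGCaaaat
Rpl18: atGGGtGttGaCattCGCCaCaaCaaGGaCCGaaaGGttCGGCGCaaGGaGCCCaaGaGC
Rpl36: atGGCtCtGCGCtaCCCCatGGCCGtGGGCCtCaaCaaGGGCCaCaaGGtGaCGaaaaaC

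Rpl22l1 and Rpl39 fell by 0.54 and 0.61 on the log2 scale, whereas Rpl18 had a log2 change of 0.34 and Rpl36 of -0.07, neither past the threshold. Over the 80 genes, which share the same 6 libraries and are not independent, Pearson's r between GC content and log2 change was 0.40 by own row (Spearman's rho 0.50) and 0.58 with copies summed (rho 0.59). With copies summed, the 40 genes of lower GC (39.6% to 52.2%) had a median log2 change of -0.38, and the 40 of higher GC (52.3% to 61.3%) of -0.19. Over all 13167 genes with a coding sequence r was 0.04 (rho 0.09), and in 5 equal classes from low to high GC content the median log2 change was -0.07, -0.02, 0.02, 0.04 and 0.07. Pools differed along this axis: in the class of highest GC the median deviation was 0.14 in dKO 1, -0.02 in dKO 2 and -0.03 in dKO 3, against -0.08, -0.02 and 0.04 in control 1, 2 and 4. Among members, r by own row was 0.33 without control 1 and dKO 1 and 0.25 with the trend of each library on GC removed. GC content also went with the level itself: r with the log10 control level per kb of coding sequence was -0.68 with copies summed. The r of that level with the log2 change was -0.64. Control values are also subtracted in the log2 change, so scatter of the control pools alone pushes this last r towards negative values. The part of composition, level and library preparation in the change was not tested. Coding length went with the change little (r = 0.13 by own row, -0.08 with copies summed).

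**Figure D5:**
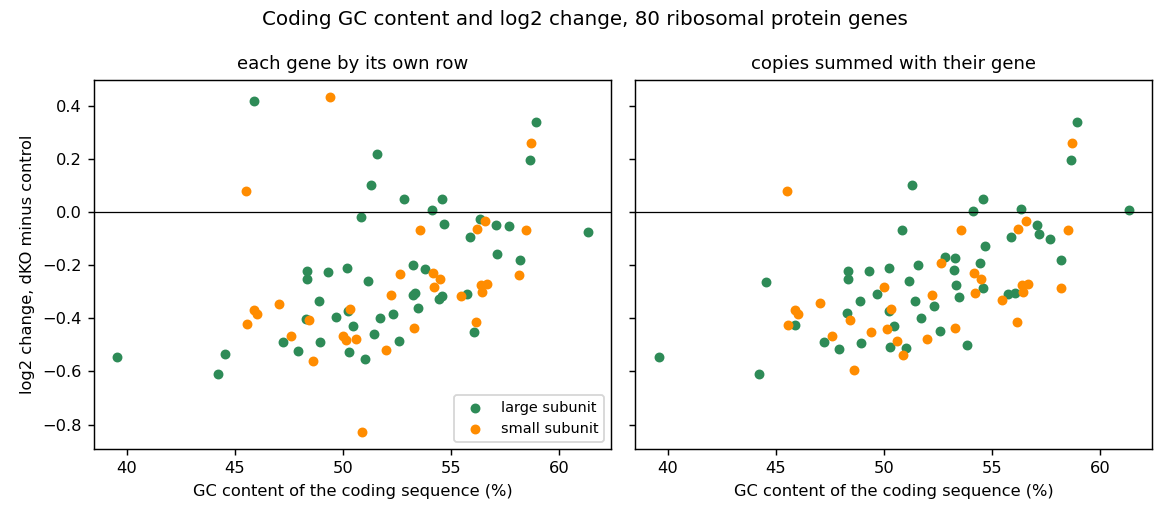
Log2 change (dKO minus control) against GC content of the coding sequence (%) for 80 ribosomal protein genes, by own row (left) and with copies summed (right); large subunit genes are green and small subunit genes orange. Points rise from lower left to upper right, with r of 0.40 by own row and 0.58 with copies summed; Rpl5 and Rps7 stand above the others at the left and join them at the right.

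Pyrimidine tracts were looked for at the starts given by RefSeq (GRCm38.p6), on the gene's strand: a C followed by at least 4 further C or T, beginning at -5 to 5 relative to the start. Of the 83 members 60 had a start in the table, and 29 of these (48.3%) held such a tract, against 19.7% of 27025 genes with a start. Among the members with a start, the tract was found in 5 of 8 that fell and 24 of 52 that did not pass. The stretches of 27 bases shown here, with the tract in capitals, are those of the 3 genes with a tract that fell most and the 3 with a tract and the highest log2 change.
Rpl39, chrX:37085208-37085234, minus strand: aagctccgCCTCTagcgacttcttcta
Rpl22l1, chr3:28805496-28805522, plus strand: cggcgcaagcccgttCTCTTCCCacgg
Rpl31, chr1:39367839-39367865, plus strand: cctcctcgCCTCCCCgtgacccggaag
Rpl7a, chr2:26910795-26910821, plus strand: ccctcttCTTTCTTTCTCCagcagccg
Rps27l, chr9:66946074-66946100, plus strand: ctcctccccgccgCCTCTatcccggaa
Rpl18, chr7:45718059-45718085, plus strand: gtctcgcaggccgCTCTTTCCCCgccc

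Tracts of this kind thus stood both in genes that fell and in genes with values near or above 0, such as Rpl7a (log2 change 0.05) and Rpl18 (0.34). A tract in these letters is not a measured transcript start.

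Other genes of translation gave a mixed picture. Beside the limma counts here and below, 12.2% of all genes fell and 9.81% rose. Of 13 elongation factor and other mRNAs known to start with pyrimidine tracts, 3 fell, 0 rose and the median log2 change was -0.26. Tpt1, an abundant growth-linked protein, had 1179, 1000 and 1112 normalised reads in dKO pools, against 1787, 1947 and 1446 in control pools (log2 change -0.65, SE 0.17, limma adjusted p = 0.023). Npm1, the nucleolar phosphoprotein, had a log2 change of -0.60, and Eef1b2, a subunit of the exchange factor for eEF1A, of -0.50. Both passed the test. Of 36 initiation factors 3 fell (Eif1a, Eif4a2 and Eif3e), 1 rose (Eif2b4) and the median was 0.00. The 5 ribosomal proteins outside the name rule had 0 calls by limma, edgeR or DESeq2, 0 at an unadjusted p under 0.05, and a median of 0.15 (-0.02 without control 1 and dKO 1), with log2 changes among them of -0.17 for Rack1, 0.15 for Rpl36al and 0.26 for Fau. Rps27rt was low, at 3.57 normalised reads in dKO pools and 7.62 in control pools on average. Its coding part is identical to that of Rps27 over 255 bases, so reads of that part cannot be told apart. In the sums above it was added to Rps27 as a copy.

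Genes that build ribosomes were close to the median of all genes. Of 41 small subunit assembly factors 0 passed by limma or edgeR (2 were higher by DESeq2 and 2 at an unadjusted p under 0.05), with a median log2 change of 0.04; of 42 large subunit assembly factors 1 fell (Gnl2, -0.41) and the median was -0.02. Of 15 proteins of snoRNPs and the nucleolus Npm1 fell and the median was 0.01. Among 21 genes of RNA polymerase I, which makes ribosomal RNA, Polr1e rose (42.97 ± 3.97 in dKO pools and 19.1 ± 7.34 in control pools, SD, n = 3 each; log2 change 1.20, limma adjusted p = 0.0089), and the median was 0.10. Of 15 snoRNA host RNAs, many of which also start with pyrimidines, Snhg18 and Snhg17 fell, Snhg14 rose and the median was -0.28. Of 24 regulators of these mRNAs and of Myc, 4 rose and 0 fell: Mycn (0.82), Eif4ebp1 (0.66), Tsc2 (0.50) and Larp4b (0.48). Eif4ebp1 restrains cap-dependent initiation and Tsc2 restrains mTOR. The part of these 4 regulators, Mycn included, in the ribosomal protein values was not tested. Of 16 targets of p53 and ribosomal stress 1 rose (Perp, 1.11), and the median was 0.16, or -0.0088 without dKO 1.

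The ribosomal proteins of mitochondria, encoded in the nucleus, had a median log2 change of the opposite sign, 0.37 against -0.31 for the cytosolic genes. Of 78 genes 13 rose and 0 fell, against 0 of 83 cytosolic genes that rose, where 9.81% of all genes rose. Mrpl12 had 59.3 ± 18.5 normalised reads in dKO pools and 26.5 ± 8.40 in control pools (SD, n = 3 each; log2 change 1.14, limma adjusted p = 0.013). Mrps27 had 36.3 ± 6.41 in dKO pools and 19.7 ± 2.96 in control pools (SD, n = 3 each; log2 change 0.85, limma adjusted p = 0.0091). Nuclear genes of oxidative phosphorylation, which are high in cardiomyocytes, rose for 59 of 86 and fell for 1, with a median of 0.81. These lists moved with the cardiomyocyte markers given above, and their relation to those markers was not tested.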

How the data were processed

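Libraries started from 40 ng of RNA; the kit is not stated to keep the strand, per the labels' protocols. Adapters were trimmed with cutadapt and transcripts quantified with RSEM 1.3.1 on GRCm38, per the submitters' processing notes; the sources used here do not name the annotation release, normalization or gene filter. The authors deposited a normalised signal for 14549 genes in 6 libraries. All 87294 values equalled whole reads plus 0.5 per 1e6 of a scaled library size, within 0.01 reads, and are called normalised reads here; they are not divided by gene length.

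Members and lists were chosen with earlier results of these data known. The comparison of dKO with control pools used limma 3.58.1 under R 4.3.3 (variance trend, no covariate). Values entered as log2(value + 1), on which changes of low genes come out too small. All genes reached 1 in at least 3 libraries. P-values were two-sided and Benjamini-Hochberg adjusted over all genes, with a threshold of 0.05; a gene is said to have risen or fallen where it passed. edgeR 4.0.16 and DESeq2 1.42.0 on the recovered reads were alternatives. The limma step was tested on simulated data.

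Members named are the 3 of highest mean, those past the threshold, and paralog pairs; from each other list up to 4 of smallest p, or the 2 of highest mean where none passed. Rps7, Rpl5, Rpl3, Rpl12, Rps3a2, the stalk genes, Rpsa, Rpl7a, Rpl18, Rpl19, Rpl23a, Rpl26, Rpl35, Rpl36 and the copies were picked with their values in view. The symbols Rpl3l, Rpl10l and Rpl39l are not among the genes tested here. The values of 2 genes are not reported here.

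Of the table's identifiers 14535 were found in GENCODE M21 (GRCm38). Coding length and GC content come from its principal transcripts. A copy is a row that holds at least 50% of a member's 50-base coding words; its values were added to the member's before the fit, an alternative chosen after seeing the data. Coding sequences were placed on copies without gaps. Without strand information, reads in overlapping exons can belong to either gene; the overlap covers, among others, 100% of exonic bases in Rps12l1, 66.2% in Rpl35, 62.3% in Rpl23a, 47.0% in Rpl24, 26.7% in Rpl5, 25.3% in Rpl31, 24.8% in Rpl30 and 13.7% in Rps12. Numbers 1 and 2 occur in both groups, but pools of the same number did not deviate together, so no pairing was used.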

Additional observations from a re-analysis of the deposited data

How the results depend on the processing

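The median log2 change of the ribosomal protein genes was negative under all alternatives, from -0.41 (without control 1 and dKO 1 together) to -0.19 (without dKO 2), and moved by less than 0.16, the SD between pools. The count of members that fell or rose did not hold. It was 2 lower without a variance trend (10.7% of all genes lower), 25 lower and 2 higher with DESeq2 (13.8% lower), 27 lower with scaling by library total (13.9% lower), and 22 lower and 1 higher with quantile normalization (11.4% lower). With library weights it was 27 lower and 1 higher (14.3% of all genes lower), with a pseudocount of 5 it had 1 higher, and without control 1 and dKO 1 together it was 37 lower and 1 higher (11.7% lower). Leaving out 1 pool at a time gave 1 to 18 lower and 0 to 2 higher members, and over all genes 881 to 1265 higher and 1261 to 1556 lower. A replicate block on the shared numbers 1 and 2, which uses 4 pools in effect, left 0 members, 580 genes higher and 780 lower. Deviations of same-numbered pools from their group means correlated at -0.181 and -0.204. This gave no sign of pairing but cannot exclude it, since the deviations within a group sum to 0. Of the alternatives chosen after seeing the data, copies summed and GC trend removed each had 1 higher, and coding length trend removed had 25 lower and 1 higher (14.6% of all genes lower). The cause was not tested.

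Rps27l turned to -0.023 with library totals, -0.035 with library weights, -0.22 without control 1 and dKO 1 together and -0.013 with the length trend removed; leaving out 1 pool at a time it ran from -0.087 (without control 1) to 0.25 (without control 2), with -0.054 without dKO 1. Rpl3 turned to -0.14 with the replicate block and -0.20 with copies summed, which also turned Rpl5 to -0.43 and Rps7 to -0.45; leaving out 1 pool at a time Rpl3 ran from -0.028 (without control 4) to 0.41 (without dKO 2). Scaling by library total moved the median of all genes to -0.09 and that of the members to -0.41. With 3 pools a group, small changes of single members were not detectable.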

Other observations

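Rpl30 and its copy Gm12191 divided their reads unevenly between pools. Gm12191 had 8.98, 79.6 and 95.6 normalised reads in dKO 1, 2 and 3, against 16.8, 0.0319 and 14.8 in control 1, 2 and 4, where 0.0319 stands for 0 reads. The sum of both was 357, 306 and 352 in dKO pools, against 399, 437 and 382 in control pools. The copy Rps6-ps4, identical to Rps6 in every coding word, held more than Rps6 itself in 5 of 6 pools.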
